A study of Mus musculus with 8 samples.

Results

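The genes described here encode the proteins of the mitochondrial respiratory chain and of the ATP synthase that it drives. Symbols were matched to the naming patterns of the mitochondrially encoded subunits (mt-Nd, mt-Co, mt-Cytb and mt-Atp) and of the nuclear families Nduf, Sdh, Uqcr, Cox4 to Cox8 and Atp5, and genes were kept where the mean over the 8 libraries reached 1 CPM (counts of a gene scaled to the same library total of 1000000). Of 46078 genes in the tables, 107 matched by name and 88 reached the limit. These members comprised 11 mitochondrially encoded genes and 77 nuclear genes.

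RNA was sequenced from infarcts of wild-type male C57BL/6J mice aged 18 months, all of which had been given DH stroke, a distal occlusion of the middle cerebral artery combined with hypoxia. The vehicle group (n = 4) received subcutaneous PBS and the HPβCD group (n = 4) received 4 g/kg of 2-hydroxypropyl-β-cyclodextrin, a sugar ring that binds lipids. Both were injected 3 times per week for 6 weeks from 1 week after stroke, and infarcts were collected at 7 weeks. Infarcts were recognized by eye when they were dissected.

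The respiratory chain lies in the inner mitochondrial membrane. Complexes I and II pass electrons to ubiquinone, complex III hands them to cytochrome c, and complex IV passes them to oxygen. Complexes I, III and IV pump protons, and complex V, the ATP synthase, uses the proton gradient to make ATP. A few core subunits are encoded in mitochondrial DNA and transcribed inside the organelle, whereas the other subunits, including all of complex II, are encoded in the nucleus and imported. Neurons rely strongly on this pathway.

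The libraries held 16616909 to 32933164 gene counts, and every pair of libraries differed by more than sampling noise. Vehicle animals 1 and 3 stood apart from the other 6 animals in their neuronal content, and in markers of other cell types given below. The summed level of 10 neuron markers in vehicle animals 1 to 4 was 1065, 44.7, 6260.3 and 21.7 CPM, against 9.74 to 91.0 CPM in the HPβCD group. All 9 neuron markers that passed the filter on low counts had a log2 fold change (HPβCD minus vehicle) below 0, with a median of -5.84, and none of the 10 was at 0 in every library. Astrocyte and oligodendrocyte markers, which define brain tissue, were present in all 8 libraries. Their sums ranged from 962 to 9305 CPM and from 378 to 5190 CPM. The medians over all members, the shares of the library and the ratio of the genomes are therefore also given without vehicle animals 1 and 3.

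No member differed between HPβCD and vehicle at the threshold of adjusted p under 0.05. By edgeR with Benjamini-Hochberg adjustment over 14736 tested genes, 0 of 88 members were called, where 1.95% of all tested genes were called, 1.17% as higher and 0.774% as lower in HPβCD. The smallest adjusted p of a member by edgeR was 0.121, for Atp5g2. DESeq2 also called 0 members, against 17.0% of all genes that it adjusted, and limma-voom called 0, against 0.441%. At an unadjusted p under 0.05, edgeR listed 5 members, or 5.68%, against 27.8% of all tested genes. Of these, 1 was higher and 4 were lower in HPβCD, against 11.8% and 16.0% of all genes. At the same limit DESeq2 listed 7 members, against 18.5% of the genes it tested, and limma-voom 6, or 6.82%, against 23.1%. Values of the 4 vehicle and the 4 HPβCD animals did not overlap in 4 members, or 4.55%, against 16.8% of all tested genes. HPβCD was the higher group in 1 of them and the lower in 3, where all genes gave 8.77% and 8.03%.

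Most members nevertheless had a log2 fold change below 0. This held for 10 of 11 mitochondrially encoded members and for 57 of 77 nuclear members, beside 7965 of all 14736 tested genes. The median log2 fold change was -0.54 over the mitochondrially encoded members and -0.20 over the nuclear members, beside -0.05 over all tested genes. The 95% interval of the log2 fold change stayed within a 2-fold change in either direction for 51 nuclear members and for 0 mitochondrially encoded members, so differences of that size were not excluded for any of the latter. In tissue RNA such as this, fewer cells of a type and less RNA per cell cannot be told apart.

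**Figure D1:**
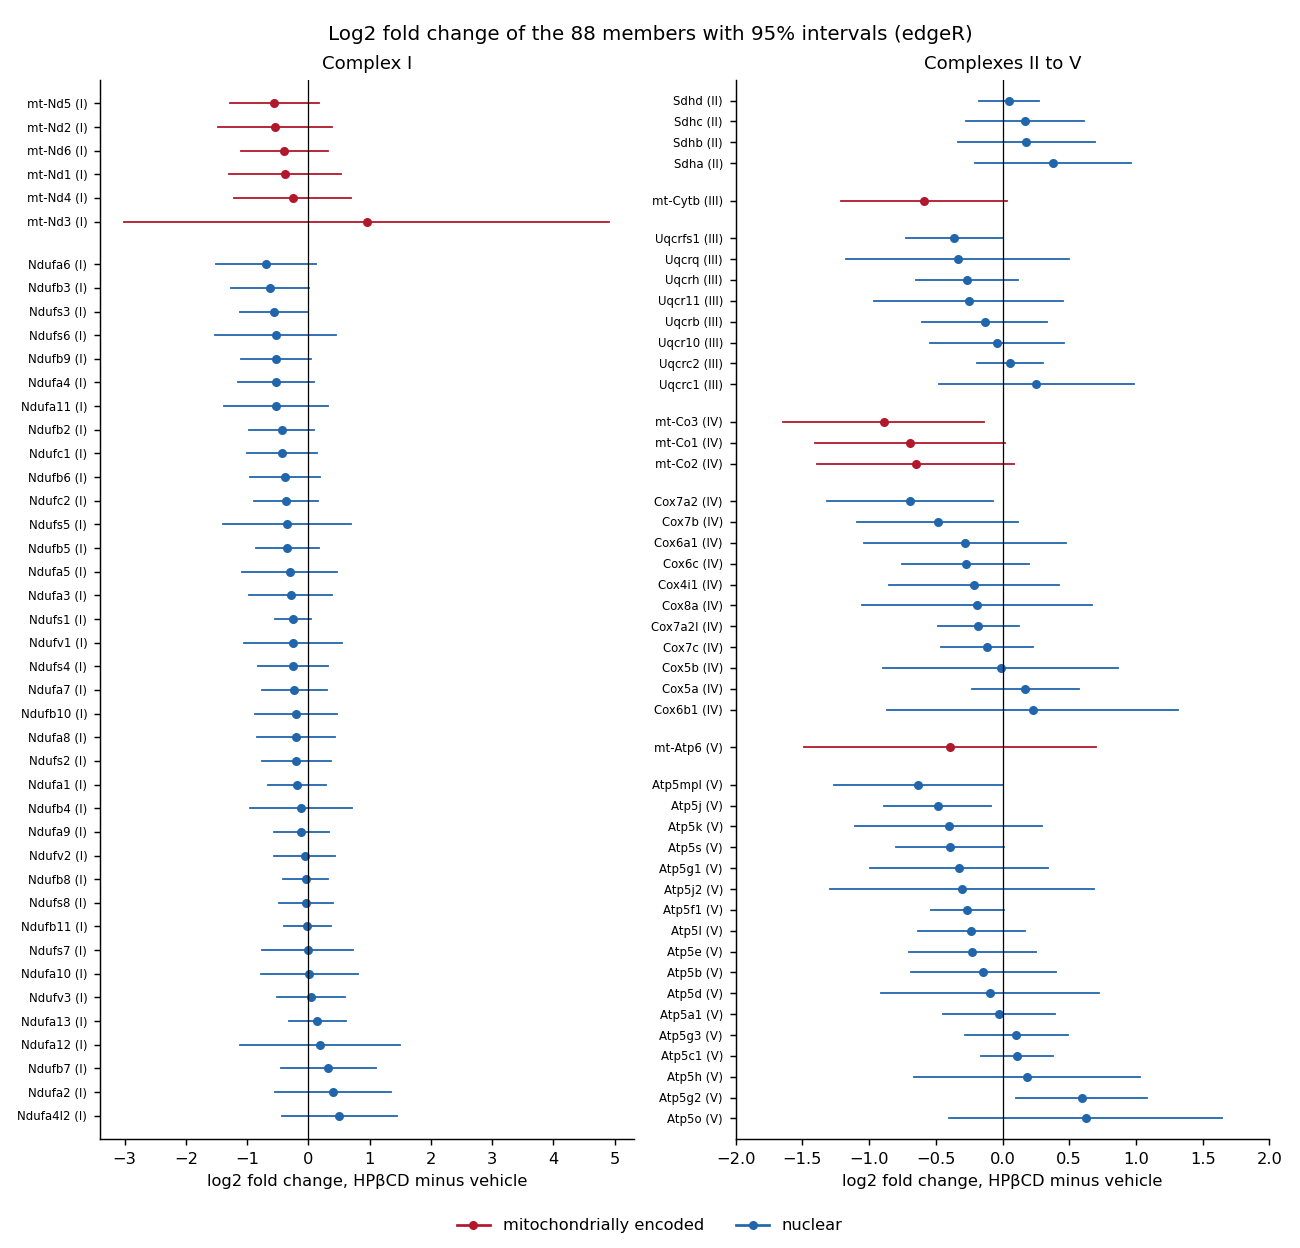
Each point is the log2 fold change (HPβCD minus vehicle) of a member, with its complex in brackets, and each line its 95% interval from edgeR (n = 4 per group). Red marks the 11 mitochondrially encoded members and blue the 77 nuclear members, and the horizontal scales of the panels differ. Points lie left of 0 for 67 of 88 members, the 4 complex II genes lie right of it, and the interval of mt-Nd3 is far wider than any other.

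The direction of the nuclear median rested on vehicle animal 3, and that of the mitochondrially encoded median on vehicle animals 1 and 3 together. Vehicle animal 3 had the highest level of all 8 in 8 of 11 mitochondrially encoded and 58 of 77 nuclear members. It was also the highest in 4674 and the lowest in 4072 of all 14736 tested genes, so it was often extreme outside the members too. Vehicle animal 2 had the lowest level in 35 nuclear members, beside 1577 of all tested genes. Without vehicle animal 3, the median was -0.21 for mitochondrially encoded members, 7 of 11 below 0, and 0.08 for nuclear members, 28 of 77 below 0, and edgeR called 0 members beside 4.22% of all genes. Without vehicle animals 1 and 3, the medians were 0.05 and 0.21, and 56 of 77 nuclear members had a log2 fold change above 0. That comparison set vehicle animals 2 and 4 alone against the 4 HPβCD animals. The animals were left out for marker levels in these same data, so its SEs and p-values can understate the spread. In it, 16 members had an unadjusted p under 0.05 by edgeR, all higher in HPβCD. They made up 18.2% of the members, against 21.5% of all genes tested, and 0 passed edgeR's adjusted threshold, beside 1.34% of all genes. Both animals were the ones with high neuron markers, but other markers set them apart too. Their astrocyte sums were 7384 and 9305 CPM, against 962 to 4041 CPM in the others. Fibroblast sums were 3536 and 2348 CPM, against 5363 to 9270 CPM, and macrophage and microglia sums 7060 and 7228 CPM, against 11188 to 23366 CPM. Oligodendrocyte sums, at 5190 and 1654 CPM against 378 to 3346 CPM, did not set both apart. The part of any cell type in these medians was not tested beyond leaving the animals out.

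**Figure D2:**
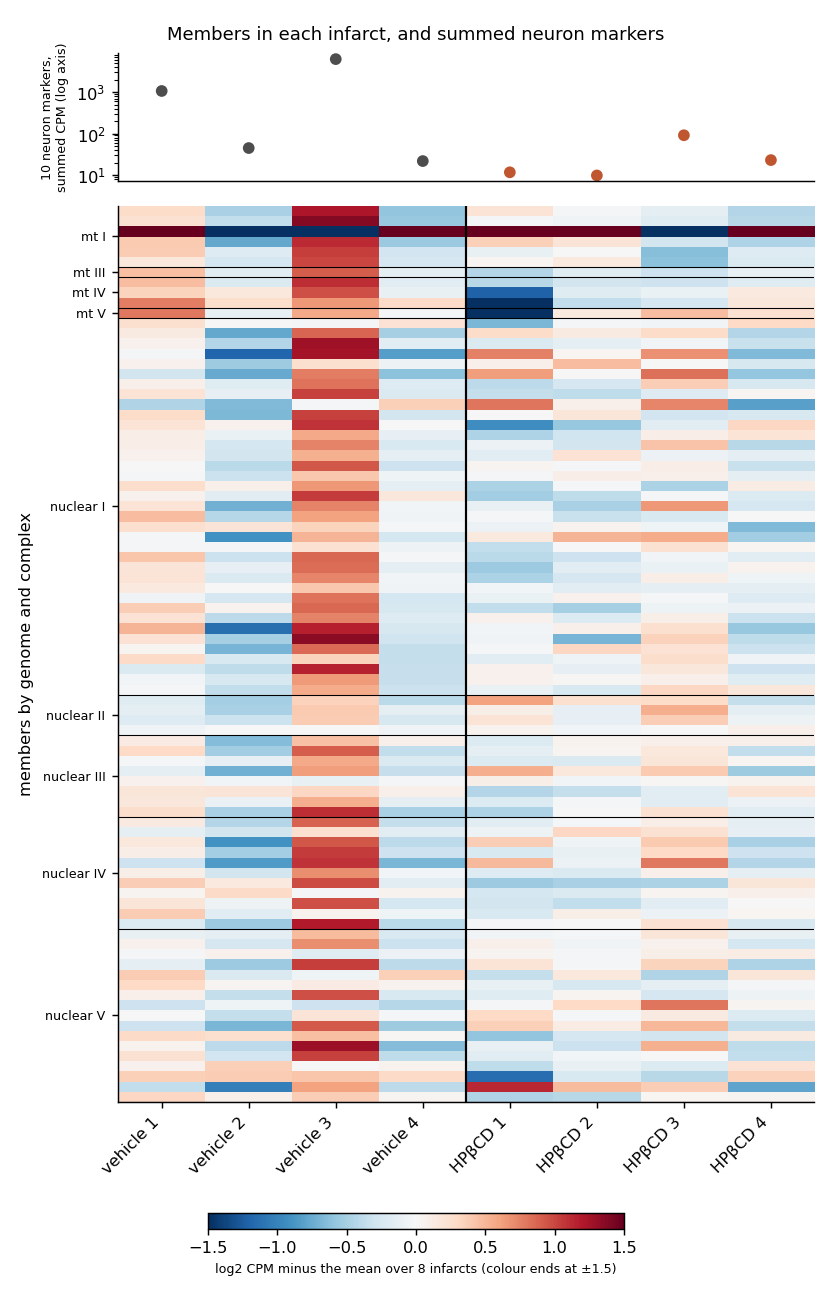
The heat map shows log2 CPM of each of the 88 members (rows, grouped by genome and complex) in each of the 8 infarcts (columns), minus the mean of that member over all 8. The points above it give the summed CPM of 10 neuron markers in the same infarcts on a log axis. Vehicle animal 3, with 6260.3 CPM of neuron markers, is red in most rows, and the single row that switches between the darkest red and the darkest blue is mt-Nd3.

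Mitochondrially encoded and nuclear members were then compared as shares of each library. The 11 mitochondrially encoded members held 3.40%, 2.01%, 4.76% and 2.04% of gene counts in vehicle animals 1 to 4 and 2.29%, 2.195%, 1.81% and 2.03% in HPβCD animals 1 to 4. Vehicle animals 1 and 3 were high, and the other vehicle animals lay within the HPβCD range. The means were 3.05% ± 1.31 (SD, n = 4) in vehicle and 2.08% ± 0.21 (SD, n = 4) in HPβCD. At these depths, the 95% Wilson intervals of single libraries were narrow, for example 4.75% to 4.77% in vehicle animal 3, so counting error was small beside the spread between animals. Such intervals cover counting error only.

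The 77 nuclear members held 0.535%, 0.431%, 0.659% and 0.448% of gene counts in the vehicle animals and 0.522%, 0.460%, 0.518% and 0.439% in the HPβCD animals. Vehicle animal 3 was again highest, and the groups overlapped. The means were 0.518% ± 0.104 (SD, n = 4) and 0.485% ± 0.0418 (SD, n = 4). Without vehicle animals 1 and 3, HPβCD minus vehicle was 0.06 percentage points for the mitochondrially encoded members and 0.05 for the nuclear members.

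The ratio of mitochondrially encoded to nuclear member counts compares the genomes within a library, where library size cancels. It was 6.35, 4.67, 7.23 and 4.55 in the vehicle animals and 4.39, 4.77, 3.51 and 4.62 in the HPβCD animals. Vehicle animals 1 and 3 again lay above all others, HPβCD animal 3 lay lowest, and the remaining 5 animals fell between 4.39 and 4.77. The mean log2 ratio was 0.38 lower in HPβCD, at 2.10 ± 0.20 (SD, n = 4) against 2.48 ± 0.33 (SD, n = 4). Without vehicle animals 1 and 3 the difference was -0.10.

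**Figure D3:**
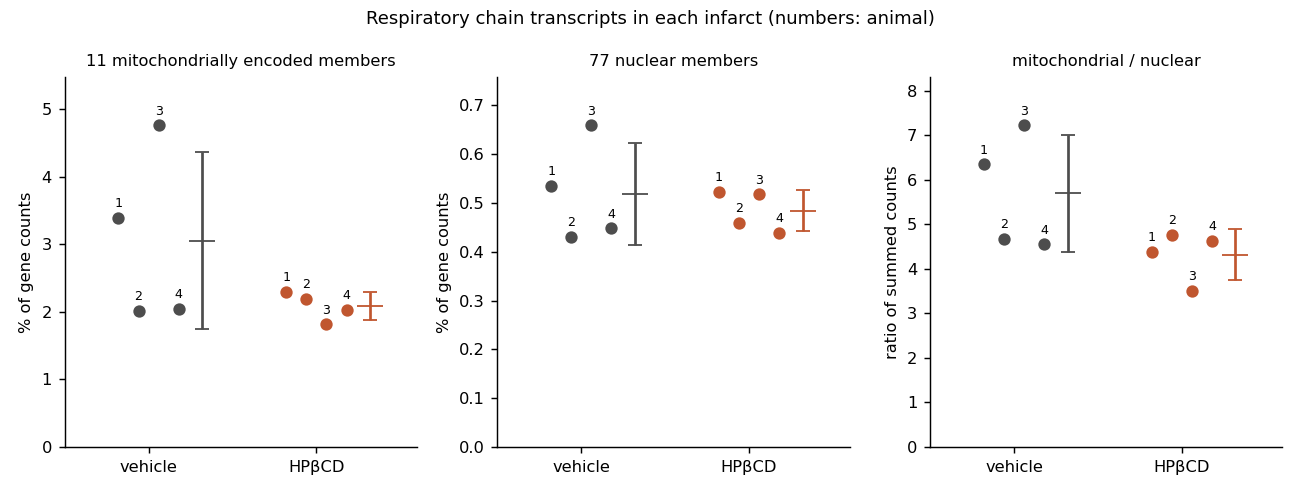
Each point is an animal (number beside it), with the group mean and SD beside the points (n = 4 per group). The panels show the percent of gene counts in the 11 mitochondrially encoded members, the percent in the 77 nuclear members, and the ratio of their summed counts. Vehicle animals 1 and 3 lie highest in the left and right panels, at 3.40% and 4.76% and at ratios of 6.35 and 7.23.

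Per kilobase of annotated exon, the mitochondrially encoded transcripts formed separate levels. Of the 11, 8 reached mean levels of 1247 to 5092 CPM per kb, from mt-Nd6 to mt-Co1. The other 3, mt-Co2, mt-Atp6 and mt-Co3, lay at 21.8, 18.3 and 11.1 CPM per kb. Nuclear members ranged from 1.56 CPM per kb for Ndufb2 to 265 CPM per kb for Cox6a1, with a median of 17.2. A further pair of mitochondrially encoded genes stayed below the limit of 1 CPM, mt-Nd4l at a mean of 0.764 CPM and mt-Atp8 at 0.142 CPM.

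The low group was made up of genes with identical copies in the nuclear genome. In the GRCm38 assembly, a stretch of chromosome 1 holds annotated copies of 7 mitochondrially encoded genes. The copies of mt-Co2, mt-Atp6, mt-Co3 and mt-Nd4l matched them over 681, 678, 783 and 294 bases with 0 differences, leaving 1 to 3 bases of each gene outside the copy. Alignments to several places were not assigned to a gene by the counting used, and they made up 18.6% to 23.6% of all counted reads or alignments. The counts of these genes can therefore understate their transcripts. mt-Atp8 has no listed copy of its own, and 21.1% of its exon lies under mt-Atp6, in a part identical to the copy of mt-Atp6. The rest of mt-Atp8 (chrM:7766-7969) lies between mt-Co2 and mt-Atp6, whose copies follow each other in the same order on chromosome 1. The bases between those copies were not compared with mt-Atp8, so its counts may be understated as well.

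For 2 genes the copy covers a part. The copy of mt-Nd4, Gm28439, holds the first 876 bases, so that 502 bases of mt-Nd4 are outside it. The copy of mt-Co1, Gm29216, is identical from position 1067 to the end, over 479 bases. Both genes kept high counts, 35361 to 100524 and 95755 to 261908 per library. The border in mt-Nd4 (chrM:11013-11072, plus strand, GRCm38) is printed below because it separates the shared from the unshared part of the gene, with the shared part in capitals.
mt-Nd4: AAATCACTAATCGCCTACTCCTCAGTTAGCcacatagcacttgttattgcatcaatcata

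mt-Nd3, a core subunit of complex I, was the member with the widest spread, and its counts moved as a unit between the gene and its copy. mt-Nd3 (chrM:9459-9806, plus strand) and Gm28438 (chr1:24612775-24613119, minus strand) differ in 1 of 345 compared bases. The difference is T3C, counted from 1 at the 5′ end of mt-Nd3, with the base of mt-Nd3 first and that of Gm28438 last. The first 75 bases of each in GRCm38 (chrM:9459-9533, plus strand, and chr1:24613045-24613119, minus strand) show it in capitals, and both are given because reads of the gene and of its copy can be told apart only by this base within the compared stretch.
mt-Nd3: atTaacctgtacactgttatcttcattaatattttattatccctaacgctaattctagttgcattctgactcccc
Gm28438: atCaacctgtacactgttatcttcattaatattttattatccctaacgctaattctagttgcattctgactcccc

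The counts of mt-Nd3 were 17402, 237, 184 and 8653 in vehicle animals 1 to 4 and 25851, 13636, 111 and 9292 in HPβCD animals 1 to 4. The counts of Gm28438 were 47, 13567, 17554 and 46 in the vehicle animals and 60, 39, 13943 and 38 in the HPβCD animals. In vehicle animals 2 and 3 and HPβCD animal 3, 98.3%, 99.0% and 99.2% of the sum lay on the copy, and in the other 5 animals 0.232% to 0.529%. Each animal thus had nearly all of its reads on either the gene or the copy, and both treatment groups held animals of each kind. The sequence of the animals at position 3 was not analysed here, and what set the assignment was not tested.

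Counted alone, mt-Nd3 had a log2 fold change of 0.95 (SE 1.70, with an adjusted p of 0.761 by edgeR), the only value above 0 among the mitochondrially encoded members. Gene and copy together reached 987, 396, 1074 and 468 CPM in the vehicle animals and 1489, 838, 754 and 518 CPM in the HPβCD animals. The groups overlapped, and the spread was much smaller than for the gene alone. The log2 fold change of the sum was 0.30 (SE 0.42, with an adjusted p of 0.689 by edgeR). Adding the copies to all 7 genes left the median over the mitochondrially encoded members at -0.54 and the number of called members at 0.

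**Figure D4:**
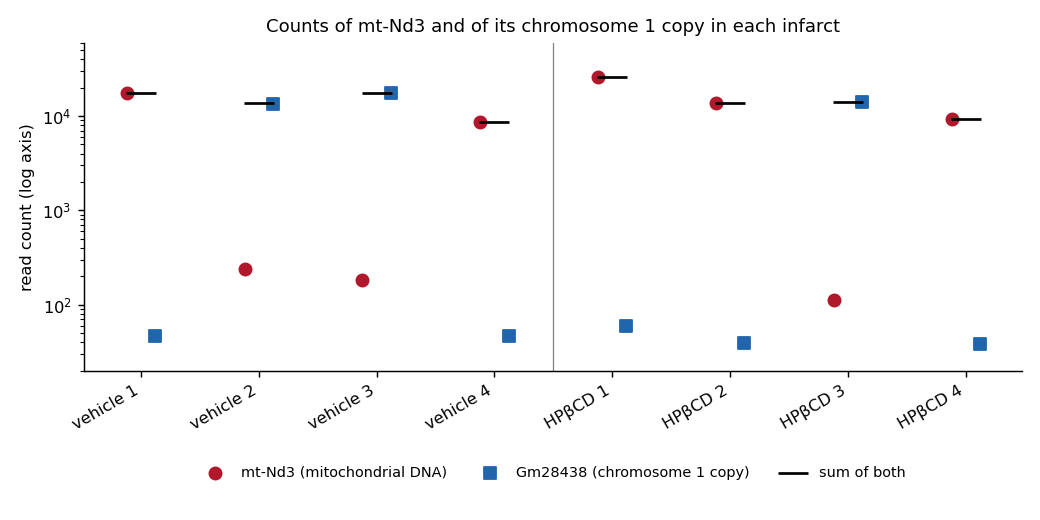
Read counts of mt-Nd3 (circles), of its copy Gm28438 on chromosome 1 (squares) and of both together (bars) are shown for each infarct on a log axis. The sum lies between 8699 and 25911 in every animal, while the circle lies at 111 to 237 counts and the square at 13567 to 17554 counts in vehicle animals 2 and 3 and HPβCD animal 3.

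The other mitochondrially encoded subunits of complex I form its membrane arm. mt-Nd1 (chrM:2751-3707), which helps to build the ubiquinone site, was at 4584, 2706, 8786 and 2519 CPM in the vehicle animals and 4367, 3709, 3428 and 2785 CPM in the HPβCD animals. Vehicle animal 3 was far above the rest, and the other vehicle animals spanned the HPβCD range. Its log2 fold change was -0.38 (95% interval -1.29 to 0.53; edgeR adjusted p = 0.585).

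mt-Nd2 (chrM:3914-4951) was at 1992, 1307, 4405 and 1138 CPM in the vehicle animals and at 1668, 1635, 1499 and 1270.3 CPM in the HPβCD animals. mt-Nd4 (chrM:10167-11544) was at 3672, 1647, 6085 and 1902 CPM and at 3587, 3197, 2319 and 2041 CPM. Both repeated the order of mt-Nd1 in the vehicle group, with animal 3 highest and animal 1 next. Their log2 fold changes were -0.54 (SE 0.41) and -0.26 (SE 0.42), and without vehicle animals 1 and 3 those of mt-Nd1, mt-Nd2 and mt-Nd4 were 0.47, 0.33 and 0.66.

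mt-Nd5 (chrM:11742-13565) was at 5010.3, 3378, 7919 and 3147 CPM in the vehicle animals and at 3560.3, 3853, 2463 and 3378 CPM in the HPβCD animals. mt-Nd6 (chrM:13552-14070), the only member on the minus strand of mitochondrial DNA, was at 688, 510.3, 1227 and 516 CPM and at 626, 680.5, 402 and 529 CPM. HPβCD animal 3 was the lowest of all 8 in both. The log2 fold changes were -0.55 (SE 0.32) and -0.39 (SE 0.31). The strand option of the counting was not given in the sources used here, so reads of mt-Nd6 and of transcripts opposite to it may not be separated.

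mt-Cytb (chrM:14145-15288), the cytochrome b of complex III, was at 4804, 3099, 6590.2 and 3151 CPM in the vehicle animals and at 2584, 3096, 2821 and 3232 CPM in the HPβCD animals. Vehicle animals 1 and 3 were high and the others overlapped with HPβCD. The log2 fold change was -0.59 (95% interval -1.21 to 0.03; edgeR adjusted p = 0.200).

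mt-Co1 (chrM:5328-6872), the catalytic subunit of complex IV and the most abundant member per kilobase, was at 10139, 6319.7, 15854 and 6585 CPM in the vehicle animals. In the HPβCD animals it was at 5502, 6064, 5958 and 6519 CPM. The HPβCD values lay close together, with 1 vehicle animal inside their range. The log2 fold change was -0.69 (95% interval -1.41 to 0.02; edgeR adjusted p = 0.190).

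mt-Co2 (chrM:7013-7696), which receives electrons from cytochrome c, was at 17.5, 15.5, 27.1 and 12.8 CPM in the vehicle animals and at 5.92, 12.2, 12.9 and 15.3 CPM in the HPβCD animals. Its log2 fold change was -0.65 (SE 0.33). Together with its copy Gm28661 it was -0.95 (SE 0.31, with an adjusted p of 0.0995 by edgeR). In vehicle animal 2, 71.7% of the sum of mt-Co2 and Gm28661 lay on the copy, against 29.8% to 60.2% in the others. mt-Co3 (chrM:8607-9390) was at 13.6, 9.59, 12.5 and 9.68 CPM and at 2.70, 6.13, 6.65 and 8.94 CPM. With each gene counted alone, it was the only mitochondrially encoded member whose groups did not overlap. Counted without its copy, mt-Co3 had a log2 fold change of -0.89 (SE 0.33, with adjusted p = 0.127 by edgeR and 0.0807 by DESeq2), the lowest of all members counted in that way. Together with its copy Gm28437 the log2 fold change was -0.68 (SE 0.31, with an adjusted p of 0.188 by edgeR). The sums were 17.2, 12.5, 16.0 and 11.5 CPM in the vehicle animals and 4.42, 9.93, 8.32 and 12.9 CPM in the HPβCD animals. Counted in this way, the groups overlapped. Since the gene and its copy are identical over 783 bases, these counts can understate the transcripts.

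mt-Atp6 (chrM:7927-8607), part of the proton channel of complex V, was at 19.1, 10.2, 16.5 and 10.9 CPM in the vehicle animals and at 2.59, 12.2, 15.3 and 12.9 CPM in the HPβCD animals. HPβCD animal 1 was far below the other 7. In that animal 71.2% of the sum of mt-Atp6 and its copy Gm10925 lay on the copy, against 26.5% to 43.9% in the others. Counted alone, mt-Atp6 had a log2 fold change of -0.40 (SE 0.48). Gene and copy together were again lowest in HPβCD animal 1, at 8.96 CPM against 14.5 to 29.4 CPM in the others. The log2 fold change of the sum was -0.36 (SE 0.34, with an adjusted p of 0.549 by edgeR). HPβCD animal 1 was also lowest for mt-Co2, mt-Co3 and mt-Nd4l, alone or summed with their copies, which likewise have 0 differences. It was highest for mt-Nd3, whose copy has 1 difference.

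The mitochondrial ribosomal RNAs, transcribed from the same strand of mitochondrial DNA as most members, had lower log2 fold changes than any member. mt-Rnr2 (chrM:1094-2675), the large ribosomal RNA, was at 9166, 5285, 15384 and 5837 CPM in the vehicle animals and at 2635, 3729, 2599.7 and 2977 CPM in the HPβCD animals. The groups did not overlap. mt-Rnr2 had a log2 fold change of -1.58 (SE 0.36, with adjusted p = 0.0599 by edgeR and 0.000472 by DESeq2). For mt-Rnr1 (chrM:70-1024), the small ribosomal RNA, the log2 fold change was -1.36 (SE 0.36, with adjusted p = 0.0722 by edgeR and 0.00341 by DESeq2), with vehicle animal 2 inside the HPβCD range. These calls by edgeR depended on single animals. Both were called without vehicle animal 2 (edgeR adjusted p = 0.0431 for mt-Rnr1 and 0.0434 for mt-Rnr2), and mt-Rnr2 also without vehicle animal 3 (0.0380). Without vehicle animals 1 and 3 together, the log2 fold changes were -0.76 (SE 0.29, with an adjusted p of 0.182 by edgeR) and -0.88 (SE 0.19, with an adjusted p of 0.0572 by edgeR).

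The ratio of the ribosomal RNAs to the 11 mitochondrially encoded members was 0.566, 0.464, 0.501 and 0.607 in the vehicle animals and 0.210, 0.333, 0.252 and 0.282 in the HPβCD animals. The groups were separate, with vehicle above HPβCD, those with few neuron markers included. The means were 0.535 ± 0.0644 (SD, n = 4) and 0.269 ± 0.0520 (SD, n = 4). The libraries were made from polyadenylated RNA, so the ratio depends on how much ribosomal RNA was retained. The part of RNA quality or of the selection step was not tested. Astrocyte markers also differed, with sums of 2657 to 9305 CPM in vehicle and 962 to 2719 CPM in HPβCD, as did fibroblast markers, with 2348 to 6025 CPM and 8657 to 9270 CPM. The part of the cell mixture in the ratio was not tested.

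**Figure D5:**
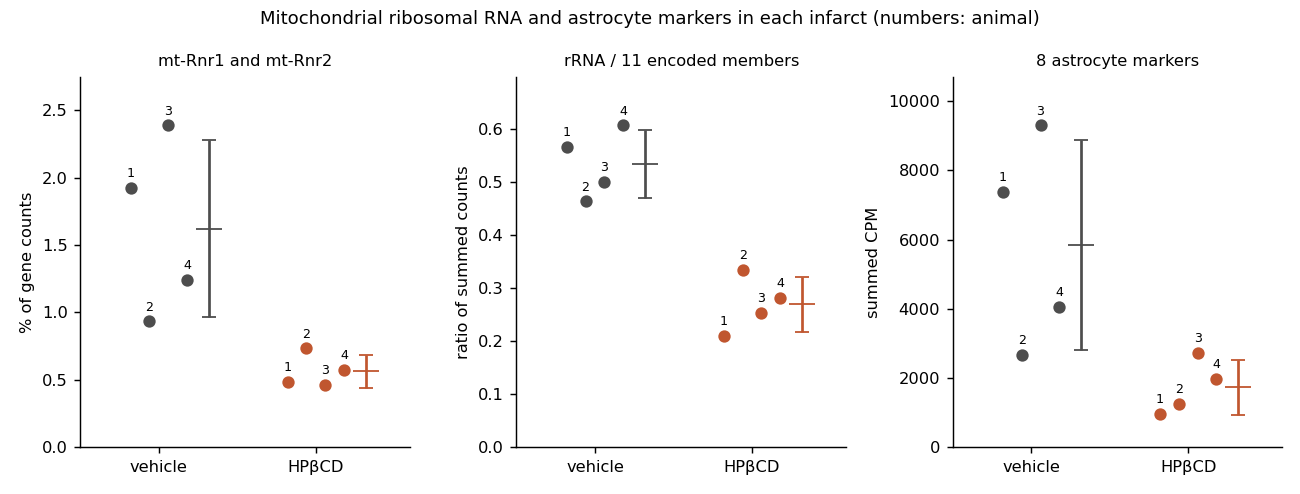
Points are animals (number beside each), with mean and SD (n = 4 per group). The panels show mt-Rnr1 and mt-Rnr2 as percent of gene counts, the ratio of their counts to those of the 11 mitochondrially encoded members, and the summed CPM of 8 astrocyte markers. The ratio lies at 0.464 to 0.607 in vehicle and 0.210 to 0.333 in HPβCD without overlap, whereas the astrocyte sums of the groups overlap between 2657 and 2719 CPM.

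Of the 37 nuclear members named as complex I genes, 30 had a log2 fold change below 0 (median -0.23), and 1 had an unadjusted p under 0.05. This was Ndufs3, a core subunit of the arm that protrudes into the matrix, named here after its values were seen. It was at 35.7, 28.6, 50.2 and 23.3 CPM in the vehicle animals and 21.3, 19.4, 26.1 and 26.0 CPM in the HPβCD animals, and the groups overlapped. Its log2 fold change was -0.57 (SE 0.24, with an adjusted p of 0.168 by edgeR). The lowest value among nuclear complex I genes was -0.69 (SE 0.36) for Ndufa6, an accessory subunit at 3.60 to 7.75 CPM in vehicle and 1.84 to 4.50 CPM in HPβCD.

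The highest value among nuclear complex I genes was that of Ndufa4l2, 0.50 (SE 0.41). It is a paralog of Ndufa4 known as a target of hypoxia-inducible factor, and was at 1.24, 1.06, 1.69 and 2.26 CPM in the vehicle animals and 3.10, 1.84, 2.95 and 0.944 CPM in the HPβCD animals. The lowest and the 2 highest values all belonged to the HPβCD group. Ndufa4 itself, named as a complex I gene but now placed in complex IV, was at 159, 126, 281 and 118 CPM and at 107, 105, 121 and 141 CPM, with a log2 fold change of -0.53 (SE 0.28, with an adjusted p of 0.248 by edgeR). Per kilobase, Ndufa2 was the most abundant nuclear complex I gene at 148 CPM per kb, and its log2 fold change was 0.40 (SE 0.41).

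The 4 genes of complex II all had log2 fold changes above 0 (median 0.17), and all 4 intervals stayed within a 2-fold change in either direction. Whether complex II differed from the other complexes was not tested. Sdha, the flavoprotein that oxidizes succinate, was at 423, 336, 609.7 and 362 CPM in the vehicle animals and 727, 565, 581 and 373 CPM in the HPβCD animals. HPβCD animal 1 was highest and the groups overlapped. For Sdha the log2 fold change was 0.38 (95% interval -0.21 to 0.96; edgeR adjusted p = 0.380).

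Sdhb, the iron-sulfur subunit, and Sdhc, a membrane anchor, had log2 fold changes of 0.18 (SE 0.23) and 0.17 (SE 0.20). Sdhd, the other anchor, was among the steadiest members, at 86.5, 88.9, 90.3 and 86.6 CPM in the vehicle animals and 93.2, 87.4, 89.8 and 94.0 CPM in the HPβCD animals. Its log2 fold change of 0.05 (SE 0.10) became -0.03 when libraries were scaled by their totals alone. Complex II also serves the citrate cycle, whose 17 listed enzymes had 5 values above 0 and 12 below.

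In complex III, 6 of 8 nuclear members had a log2 fold change below 0 (median -0.19). Uqcrfs1, the Rieske iron-sulfur protein, was at 71.1, 71.8, 77.5 and 65.9 CPM in the vehicle animals and 46.1, 48.7, 55.9 and 72.4 CPM in the HPβCD animals. HPβCD animals 1, 2 and 3 lay below all vehicle animals, and animal 4 lay among them. Its log2 fold change was -0.36 (SE 0.16, with an adjusted p of 0.186 by edgeR).

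The core proteins differed from each other in their spread. Uqcrc2 was at 189, 176, 167 and 177 CPM in the vehicle animals and 191, 176, 182 and 187 CPM in the HPβCD animals, a narrow range in which the groups overlapped. Uqcrc1 was at 102, 67.6, 173 and 87.8 CPM and at 163, 125, 147 and 77.5 CPM. The log2 fold changes were 0.05 (SE 0.11) and 0.25 (SE 0.32).

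In complex IV, 9 of 11 nuclear members had a log2 fold change below 0 (median -0.19). Cox7a2, a small subunit of the widely expressed isoform, was at 28.6, 24.6, 43.7 and 19.8 CPM in the vehicle animals and 15.1, 15.8, 16.0 and 25.1 CPM in the HPβCD animals. HPβCD animal 4 lay within the vehicle range and the other 3 below it. Cox7a2 had a log2 fold change of -0.70 (SE 0.27, with an adjusted p of 0.143 by edgeR), the lowest among all nuclear members. Cox6b1, which contacts cytochrome c, had the highest value of the complex, 0.23 (SE 0.47), with 27.5 to 105 CPM in vehicle and 36.4 to 85.5 CPM in HPβCD.

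Several complex IV subunits exist as a widely expressed form and a form known from muscle, lung or testis. The widely expressed forms prevailed throughout. Cox6a1 was the nuclear member with the highest level per kilobase, at 265 CPM per kb, while its muscle form Cox6a2 was at 1.25 CPM per kb. Cox4i1 was at 48.2 and its lung and hypoxia form Cox4i2 at 1.26 CPM per kb. Cox6a1, Cox4i1 and Cox8a had log2 fold changes of -0.28 (SE 0.33), -0.21 (SE 0.28) and -0.19 (SE 0.38), which became 0.35, 0.36 and 0.49 without vehicle animals 1 and 3. Cox7b had a log2 fold change of -0.48 (SE 0.27).

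The alternative forms fell below the limit of 1 CPM over all animals. Cox4i2, at a mean of 0.983 CPM, was the gene nearest to the limit from below, and Ndufb6, at 1.496 CPM, the nearest from above, with an opposite-strand gene, Smim27, over 39.0% of its exons. Cox6a2 was at 1.36, 0.804, 1.1501 and 1.24 CPM in the vehicle animals and 0.575, 0.429, 0.859 and 0.389 CPM in the HPβCD animals, resting on 7 to 28 counts per library. HPβCD animal 3 overlapped with vehicle animal 2, and the log2 fold change was -0.99 (SE 0.35, with an adjusted p of 0.111 by edgeR). Cox6b2, Cox7a1, Cox7b2 and Cox8b stayed at means of 0.437 CPM or less and could not be compared at this depth. Skeletal muscle markers summed to 0.918 to 10.1 CPM in vehicle and 0.575 to 1.61 CPM in HPβCD.

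Complex V held the members with the smallest p-values. Of its 17 nuclear genes, 12 had a log2 fold change below 0 (median -0.23), 2 (11.8%, against 27.8% of all tested genes) had an unadjusted p under 0.05, and in 3 (17.6%, against 16.8%) the groups did not overlap. These shares were below and near those of all genes. The genes of either kind, 4 in all, were named after their values were seen. Atp5g2 is 1 of 3 genes that encode the same c-ring subunit. It was at 7.92, 9.39, 7.93 and 7.31 CPM in the vehicle animals and 9.65, 12.1, 17.3 and 10.1 CPM in the HPβCD animals, all HPβCD values lying above all vehicle values. Its log2 fold change was 0.59 (SE 0.22, with adjusted p = 0.121 by edgeR and 0.0828 by DESeq2).

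The other c-ring genes did not share that separation. Atp5g1 had a log2 fold change of -0.33 (SE 0.29). Atp5g3 was at 307, 241, 353 and 302 CPM in the vehicle animals and 379, 305, 339.9 and 269 CPM in the HPβCD animals, with a log2 fold change of 0.10 (SE 0.17). Per kilobase, Atp5g3 was at 143 CPM, Atp5g2 at 6.10 CPM and Atp5g1 at 2.16 CPM, so the gene with the separated groups contributed a small part of the c-ring transcripts. Whether the difference of Atp5g2 differs from that of its paralogs was not tested.

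Atp5j, a subunit of the peripheral stalk, was at 52.9, 51.6, 59.8 and 43.9 CPM in the vehicle animals and 28.8, 36.5, 36.0 and 47.6 CPM in the HPβCD animals. HPβCD animal 4 overlapped with vehicle. The log2 fold change was -0.48 (SE 0.18, with an adjusted p of 0.122 by edgeR). Atp5f1, another stalk subunit, was at 218, 182, 193 and 183 CPM and at 164, 149.8, 159 and 174 CPM, with no overlap and a log2 fold change of -0.26 (SE 0.12, with an adjusted p of 0.195 by edgeR). Atp5s, placed in complex V here by its name alone, was at 12.8 to 16.1 CPM in vehicle and 9.08 to 12.7 CPM in HPβCD, also with no overlap (log2 fold change -0.39, SE 0.18).

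At the ends of complex V stood Atp5o and Atp5mpl. Atp5o, the stalk subunit at the top of the catalytic head, was at 102, 64.7, 199.7 and 100.4 CPM in the vehicle animals and 289, 183, 171 and 75.8 CPM in the HPβCD animals. Atp5o had a log2 fold change of 0.62 (SE 0.45, with an adjusted p of 0.406 by edgeR). A second annotated entry with the same symbol lies over 12.3% of its exons on the same strand, and other genes over 35.6% on the opposite strand. Its reads may therefore not all be counted for this entry alone. Atp5mpl, a small membrane subunit, was at 17.4, 17.7, 18.2 and 16.5 CPM and at 6.09, 11.5, 10.1 and 17.3 CPM. HPβCD animal 1 was lowest, HPβCD animal 4 lay among the vehicle animals, and the log2 fold change was -0.63 (SE 0.28, with an adjusted p of 0.181 by edgeR).

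Genes that assemble, supply or regulate the chain were read from the same edgeR fit. Of 152 tested genes in 7 pathway lists of nuclear genes, 0 were called, beside 1.95% of all tested genes. DESeq2 called 2 of them higher and 6 lower, with 17.0% of all its genes called, and all of these except Ogdh were named after their values were seen. Of 46 tested assembly factors, 36 had a log2 fold change below 0 (median -0.20), among them the complex III factors Ttc19 at -0.84 (SE 0.27, with an adjusted p of 0.0940 by edgeR) and Lyrm7 at -1.08 (SE 0.33, with an adjusted p of 0.0875 by edgeR). The most abundant factors, Coa5 and Cox15, were at 0.16 (SE 0.15) and 0.07 (SE 0.15). Of 15 chain carriers and subunits outside the naming patterns, 12 were below 0 (median -0.16), with Cyc1, cytochrome c1, at -0.21 (SE 0.17) and Gpd2, the mitochondrial glycerol phosphate dehydrogenase, at -0.14 (SE 0.16).

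Among 9 tested regulators of mitochondrial biogenesis, 6 were below 0 (median -0.17). Ppargc1a, the coactivator PGC-1α, was at 31.5, 12.2, 54.7 and 17.9 CPM in the vehicle animals and 6.78, 6.31, 8.05 and 10.05 CPM in the HPβCD animals. The groups did not overlap, and vehicle animals 1 and 3 were again highest. For Ppargc1a the log2 fold change was -1.90 (SE 0.44, with adjusted p = 0.0624 by edgeR and 0.000856 by DESeq2). It was called by edgeR without vehicle animal 2 (adjusted p = 0.0401) or without vehicle animal 3 (adjusted p = 0.0473), and without vehicle animals 1 and 3 together its log2 fold change was -0.93 (SE 0.24, with an adjusted p of 0.0944 by edgeR). Esrrg, a nuclear receptor that works with it, reached 9.67 and 26.8 CPM in the first and the third vehicle animal and 0.444 to 0.977 CPM in the other 6 animals, with a log2 fold change of -3.82 (SE 1.197, with an adjusted p of 0.0976 by edgeR) that became -0.36 (SE 0.47) without those 2 animals. The abundant factors Gabpa and Yy1 were at 0.02 (SE 0.21) and -0.30 (SE 0.29).

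The 30 tested genes of mitochondrial DNA upkeep, transcription and transcript processing had a median of -0.03, with 13 above and 17 below 0. Lrpprc and Grsf1, RNA-binding proteins that stabilize or process mitochondrial transcripts, were at 0.16 (SE 0.15) and -0.01 (SE 0.12). The summed level of this list was 514 to 544 CPM in vehicle and 503 to 562.02 CPM in HPβCD, a narrow range in all 8 animals, those with high neuron markers included.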

How the data were processed

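Poly(A)-selected RNA from the infarcts of 8 animals was sequenced as paired-end 75 base reads. The authors deposited read counts per gene for each library. The submitters' processing notes name bcl2fastq (version 2.19), Trimmomatic (version 0.32), STAR (version 2.5.2b), HTSeq, DESeq2 and the GRCm38 genome. The HTSeq version, its strand option and the annotation release were not given in the sources used here. The 5 lines for reads in no gene, 26.6% to 36.6% of each table's total, were left out. A symbol was matched to 45143 of 46078 identifiers, and coordinates and exon lengths were taken from a GRCm38 annotation.

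Groups and animal numbers were taken from the labels, which give no batch. Animals with the same number were not treated as pairs. Replicates were taken to be separate animals. The deposited counts (16616909 to 32933164 per library) were fitted in edgeR (version 4.0.16, R version 4.3.3) with TMM scaling, filterByExpr, the robust quasi-likelihood F test and Benjamini-Hochberg adjustment over 14736 genes, with adjusted p under 0.05 as the threshold. The fitting script was also run on simulated data, and the outcome of that run is not given here. DESeq2 (version 1.42.0), limma-voom (version 3.58.1), other scalings, no filter, an animal-number block, other member limits and leaving out animals were the alternatives. CPM were scaled by the TMM factors, with a prior count of 2 on the log2 scale. Wilson intervals cover counting error only.

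Members, gene lists and marker lists were chosen with earlier results of these data known. The rule for named genes took all mitochondrially encoded members, called nuclear members, the highest and lowest log2 fold change and the highest level per kilobase in each complex, listed paralog pairs, and from each pathway list the called genes and the 2 with the highest mean CPM. Ndufs3, Ndufb6, Sdhb, Sdhc, Atp5f1, Atp5g1, Atp5g2, Atp5j, Atp5s and the pathway genes (Ttc19, Lyrm7, Ppargc1a, Esrrg, Hk2, Pfkm and Aldoc) fall outside this rule and were named after their values were seen. A pathway gene that the rule would have named is not reported here.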

Additional observations from a re-analysis of the deposited data

Results flagged for a closer look

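In 126 groups of 4 animals, made from the members and other genes named, the distance of the highest or lowest animal to its nearest neighbor was compared with the range of the group. In 3 groups it exceeded Dixon's 95% critical value, where chance gives about 1 in 20 groups, or 6.3. All 3 were in the HPβCD group.

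For mt-Atp6, HPβCD animal 1 was at a log2 CPM of 1.43, against 3.62 to 3.94 in the other 3 HPβCD animals. For mt-Nd4l, the same animal was at -2.21, against -0.23 to 0.14. Both genes have copies on chromosome 1 that are identical along nearly their whole length. Gene and copy together were also lowest in that animal, at 8.96 CPM for mt-Atp6 and 0.460 CPM for mt-Nd4l. For Cox7a2, HPβCD animal 4 was at 4.65, against 3.93 to 4.01.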

How the results depend on the processing

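No member was called by edgeR, DESeq2 or limma-voom under any alternative run, and the smallest adjusted p of a member was 0.0767, without HPβCD animal 4. Leaving out vehicle animals 1 and 3 moved several summaries. The median log2 fold change became 0.0460 for mitochondrially encoded and 0.21 for nuclear members. The HPβCD minus vehicle difference became -0.10 for the log2 ratio and 0.0570 percentage points for the mitochondrially encoded share. For the nuclear share it turned from -0.03 percentage points with all animals to a value above 0. Leaving out 1 animal at a time gave ranges of -0.70 to -0.21 and -0.30 to 0.08 for the medians, -0.48 to -0.26 for the log2 ratio, -1.32 to -0.40 and -0.06 to 0.01 percentage points for the mitochondrially encoded and nuclear shares, and 0 to 0 called members. Members at an unadjusted p under 0.05 by edgeR then numbered 0 without vehicle animal 1 and 10 (11.4%) without vehicle animal 2 or 3, against 5 (5.68%) with all animals and 17 (19.3%) with library totals alone. The shares of all tested genes in these settings were 20.2%, 29.5%, 28.4%, 27.8% and 27.3%. The direction of these members changed between settings. Without vehicle animal 2, 1 was higher and 9 were lower in HPβCD, whereas without vehicle animal 3, 8 were higher and 2 lower. With library totals alone, 1 was higher and 16 were lower. The other settings kept the medians at -0.59 to -0.46 and -0.27 to -0.11, and the log2 ratio at -0.42 to -0.18. Counting genes together with their chromosome 1 copies, and the ribosomal RNAs without vehicle animals 1 and 3, were chosen after seeing the data.

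For named genes that edgeR did not call in any of these settings, log2 fold changes that turned sign without vehicle animals 1 and 3 were mt-Nd1 0.47, mt-Nd2 0.33, mt-Nd4 0.66, mt-Nd5 0.0365, mt-Nd6 0.14, mt-Nd4l 0.0890, mt-Atp6 0.0460, Cox6a1 0.35, Cox4i1 0.36, Cox8a 0.49, Cyc1 0.0482, Vdac1 0.0532, Cox15 -0.0929 and Gabpa -0.21. With library totals alone they were Sdhd -0.0321, Uqcrc2 -0.0300, Cox15 -0.0234 and Gabpa -0.0717, with limma-voom Cox8a 0.0133, and for Grsf1 0.00497 with DESeq2 and 0.0160 with no filter. Leaving out 1 animal at a time gave ranges through 0 for mt-Nd1 (-0.58 to 0.13), mt-Nd2 (-0.75 to 0.0400), mt-Nd4 (-0.47 to 0.21), mt-Nd4l (-0.55 to 0.0478), Cox6a1 (-0.45 to 0.16), Cox4i1 (-0.36 to 0.15), Cox8a (-0.37 to 0.39), Cox15 (-0.0263 to 0.16), Grsf1 (-0.0696 to 0.0367) and Gabpa (-0.15 to 0.14). The cause was not tested.

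Over all tested genes, edgeR called 287, DESeq2 2899, limma-voom 65, edgeR with library totals alone 11, and edgeR leaving out 1 animal 0 to 629. With the animal number as a replicate block, edgeR called 0 members and 9 genes in all, and the medians were -0.46 and -0.12. Deviations of same-numbered animals correlated at -0.26, 0.24, 0.33 and 0.10. Animals with different numbers were not compared in this way, so these values cannot decide whether the numbers pair the animals. Depth limited mt-Atp8, mt-Nd4l and the alternative complex IV forms, which rested on few counts, and for genes with chromosome 1 copies the unassigned alignments limit what their counts cover.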

Other observations

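The remaining pathway lists held few differences. Of 17 citrate cycle enzymes, 5 had a log2 fold change (HPβCD minus vehicle) above 0 and 12 below (median -0.13), and edgeR called 0. Ogdh, a subunit of the 2-oxoglutarate dehydrogenase complex, was at 286, 313, 332 and 292 CPM in the vehicle animals and 372, 427, 379 and 357 CPM in the HPβCD animals. All HPβCD values lay above all vehicle values, and the log2 fold change was 0.33 (SE 0.13, with adjusted p = 0.140 by edgeR and 0.0412 by DESeq2). Of 18 outer membrane and carrier proteins, 6 were above 0 and 12 below (median -0.11), with the channel Vdac1 at -0.20 (SE 0.20) and the ADP/ATP carrier Slc25a5 at 0.27 (SE 0.15).

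Of 17 glycolysis enzymes, 7 were above 0 and 10 below (median -0.18), and edgeR called 0. Hk2, a hexokinase that binds the outer mitochondrial membrane, was at 28.2, 35.7, 29.4 and 37.2 CPM in the vehicle animals and 48.8, 48.8, 44.1 and 38.7 CPM in the HPβCD animals, without overlap (log2 fold change 0.47, SE 0.15; edgeR adjusted p = 0.0943; DESeq2 adjusted p = 0.0457). Pfkm, a phosphofructokinase known from muscle and brain, was at -1.51 (SE 0.60; edgeR adjusted p = 0.156; DESeq2 adjusted p = 0.0402). Aldoc, the brain form of aldolase found in astrocytes, was at -2.56 (SE 0.89; edgeR adjusted p = 0.117; DESeq2 adjusted p = 0.00558). Vehicle animals 1 and 3 were highest for both of these genes. Gapdh and Pkm, the most abundant of the list, were at 0.34 (SE 0.42) and 0.41 (SE 0.36).

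Summed levels of several cell type marker lists also separated the groups. Macrophage and microglia markers summed to 7060 to 12035 CPM in vehicle and 14094 to 23366 CPM in HPβCD. Pericyte and smooth muscle markers summed to 487 to 701 CPM and 782 to 1033 CPM, both lists without overlap. Sums weigh abundant markers most. Of the 10 macrophage and microglia markers, 8 had a log2 fold change above 0 and 2 below, while all 8 pericyte and smooth muscle markers were above 0. B lymphocyte and plasma cell markers summed to 1168 to 2629 CPM in vehicle and 81.2 to 362 CPM in HPβCD, also without overlap. Endothelial markers (430 to 505 CPM and 470 to 805 CPM) and erythroid markers (14.1 to 33.8 CPM and 31.98 to 35.7 CPM) overlapped. The part of these mixtures in the values of the members was not tested.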
